A study of Mus musculus with 15 samples.

Results

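Interferon-stimulated genes were described across 5 sorted mesenchymal populations of mouse thymus and lymph node. A list of 37 such genes was matched to the array rows whose annotation gave exactly 1 gene symbol, and 33 of the 37 were measured among the 18718 genes tested. Igtp, Parp9 and Dtx3l stood only on 3 rows that carried several symbols, and no row carried the symbol Ifi44, so these 4 have no value here. Irf1 had 2 rows, and the row with the highest mean over the 15 arrays was kept.

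All cells came from C57BL/6 mice aged 2 weeks and were sorted as PDGFRβ+ after tissue digestion with liberase TM and DNase I. The thymus gave PDPN+BP3- cells and PDPN- cells. Inguinal, brachial and axillary lymph nodes, pooled, gave PDPN- cells, PDPN+BP3- cells and PDPN+BP3+ cells. PDPN is podoplanin, a surface glycoprotein of fibroblastic stroma, and BP3 is the surface enzyme encoded by Bst1. The PDPN- populations of both tissues were also sorted as Ly51+, Ly51 being the peptidase encoded by Enpep. No interferon, infection or other treatment is named for any population. Each population was measured on 3 Affymetrix Mouse Gene 1.1 ST arrays from 3 separate experiments, using pools of 3 mice (thymus) or 10 to 11 mice (lymph node). The size of a pool and the tissue cannot be told apart.

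Interferons bind cell-surface receptors whose JAK kinases phosphorylate STAT proteins. STAT2 and IRF9 are parts of the complex ISGF3, which binds the interferon-stimulated response element (ISRE), whereas interferon gamma acts mainly through the gamma-activated site (GAS). The induced genes encode sensors of foreign nucleic acid, effectors that block viral replication, and feedback regulators of the pathway. Many are also transcribed in uninfected tissue.

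The ISRE was looked for because it is the element that these genes are known to share. RefSeq promoter windows of build GRCm38.p6, each with 250 bases before and 50 bases after an annotated start, were found for 25 of the 33 members. Oas2, Rtp4, Dhx58, Parp14, Zbp1, Mx1, Usp18 and Mx2 had none. The ISRE core was searched as GAAA, any 2 bases and GAAA again, or its reverse complement (TTTC, any 2 bases, TTTC), overlapping matches included. It was present in 13 of the 25 members (52%), against 3.44% of all 32851 windows and 3.99% of 27025 genes. The GAS core TTCNNNGAA, which reads the same on both strands, was present in 6 of 25 (24%), against 8.3% of windows and 9.55% of genes. Irf1 held a GAS core 90 bases before its start and no ISRE core. The ISRE cores of Ifih1 and Eif2ak2 lay past the start, by 33 and 19 bases. The 7 stretches below belong to members that passed the threshold in most comparisons among those with an ISRE core before the start. Each runs 5′ to 3′ on the gene's own strand, with the ISRE cores in capitals.

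Oas1a (chr5:120907526-120907585, minus strand): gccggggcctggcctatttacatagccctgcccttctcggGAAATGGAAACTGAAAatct
Ifit1 (chr19:34640745-34640853, plus strand): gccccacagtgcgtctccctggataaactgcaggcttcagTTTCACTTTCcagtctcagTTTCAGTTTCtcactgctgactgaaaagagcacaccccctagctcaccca
Ifit3 (chr19:34583333-34583456, plus strand): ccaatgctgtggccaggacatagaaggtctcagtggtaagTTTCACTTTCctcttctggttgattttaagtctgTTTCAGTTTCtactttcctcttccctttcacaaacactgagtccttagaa
Isg15 (chr4:156200835-156200936, minus strand): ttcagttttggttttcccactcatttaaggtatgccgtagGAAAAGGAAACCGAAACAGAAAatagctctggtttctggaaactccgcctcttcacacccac
Trim30a (chr7:104465194-104465269, minus strand): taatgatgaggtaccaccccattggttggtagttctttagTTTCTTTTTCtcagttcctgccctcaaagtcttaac
Gbp3 (chr3:142559959-142560043, plus strand): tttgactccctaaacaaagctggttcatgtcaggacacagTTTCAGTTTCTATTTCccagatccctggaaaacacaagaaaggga
Rsad2 (chr12:26456523-26456612, minus strand): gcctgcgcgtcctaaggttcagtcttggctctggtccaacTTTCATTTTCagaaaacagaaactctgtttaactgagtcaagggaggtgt

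Isg15 held 3 overlapping cores, Oas1a and Gbp3 each held an overlapping pair, Ifit1 and Ifit3 each held a pair set apart, and Trim30a and Rsad2 held 1 core in the stretch shown. A match is a description of these letters and not of a bound site.

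Values below are RMA signals on a log2 scale, the mean ± SD is over n = 3 arrays. Levels are not compared between genes. Differences carry standard errors (SE) and p-values from a limma fit over all 15 arrays, adjusted over all 18718 genes, with a threshold of 0.05. The sort antigens ran with their gates. Pdpn had means of 3.01 and 3.41 in the PDPN- populations, of 9.11 and 8.16 in the PDPN+BP3- populations of thymus and lymph node, and of 8.79 in PDPN+BP3+ cells. Bst1 had a mean of 8.74 in PDPN+BP3+ cells and at most 3.30 elsewhere, Enpep had means of 8.07 and 7.69 in the PDPN- populations and at most 4.61 elsewhere, and Pdgfrb lay between 8.94 and 10.61 in all 5. The array median was 3.58 on replicate 1 of thymic PDPN+BP3- cells and lay between 3.77 and 3.885 elsewhere. These were bulk samples, in which fewer cells of a kind and less RNA per cell cannot be told apart.

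Lymph node PDPN+BP3+ cells had the lowest signal of most members. Of the 33 members, 20 had their lowest mean there, against 19.7% of all genes, and 1, Ifi35, in thymic PDPN+BP3- cells, against 29.6%. Of the same members, 18 had their highest mean in lymph node PDPN- cells, against 19.9%. All 3 PDPN+BP3+ arrays lay below the other 12 arrays in 12 members (2.73% of all genes), namely Irf1, Irf7, Irf9, Ifit1, Ifit3, Mx2, Isg15, Rsad2, Cmpk2, Samd9l, Rtp4 and Xaf1. Usp18 was the 1 member with all 3 above the other 12 (7.06% of all genes). Within lymph node, the means fell from PDPN- to PDPN+BP3- to PDPN+BP3+ cells in 23 members, against 20.5% of all genes, and rose in Usp18 alone, against 20.0%. In 11 of the 23 the arrays did not overlap at either step, against 2.35% of all genes, and those of Usp18 did not overlap either, against 3.25% for a rise. Irf7, Isg15, Samd9l and Rtp4 were among the 11. An F test over the 5 populations passed the threshold for 30 of 33 members, where the background was 45.3% of all genes, and Stat2, Mx1 and Ifit2 did not pass it.

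**Figure D1:**
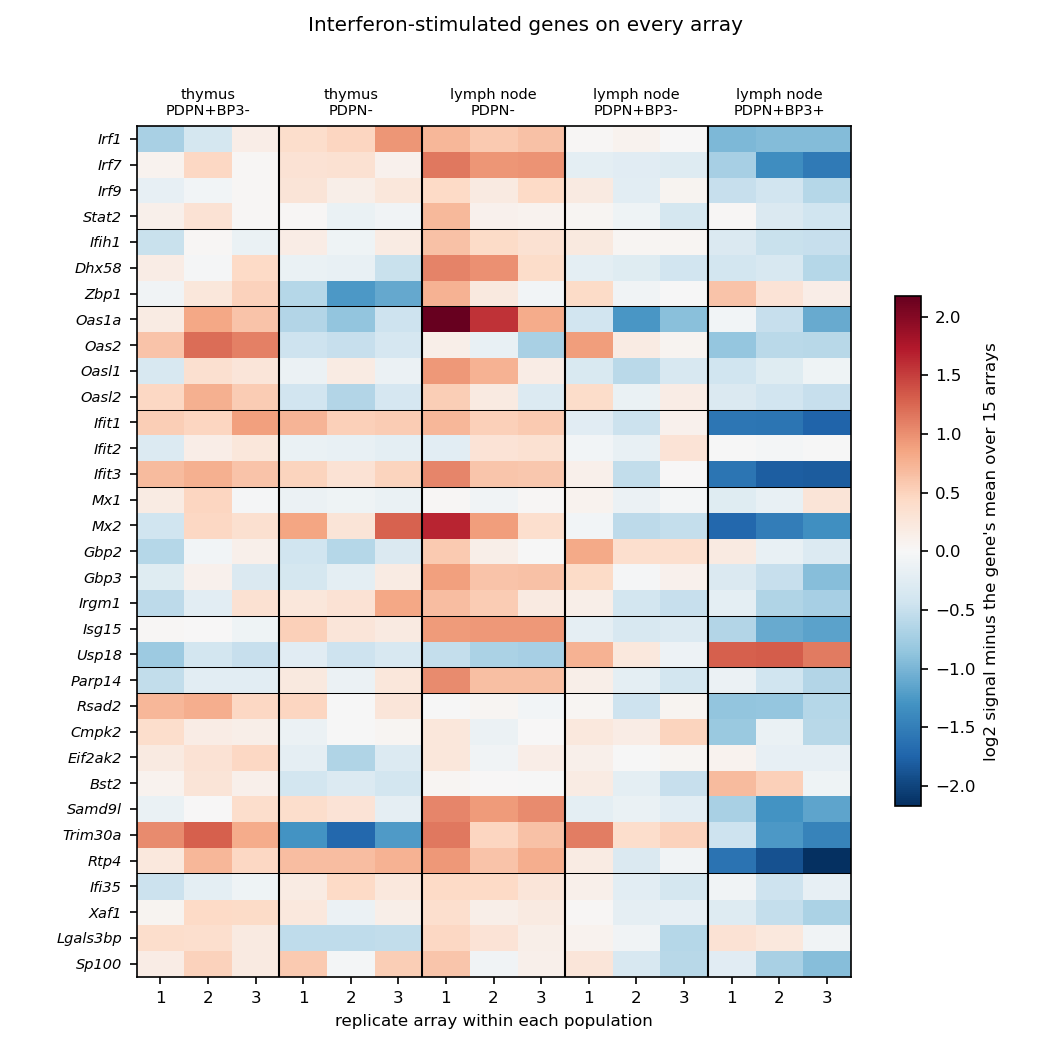
The heat map shows the 33 members (rows) on the 15 arrays (columns, grouped by population), coloured by the log2 signal minus that member's mean over all arrays. The 3 lymph node PDPN+BP3+ columns are low for most rows, and Usp18 is high there.

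**Figure D2:**
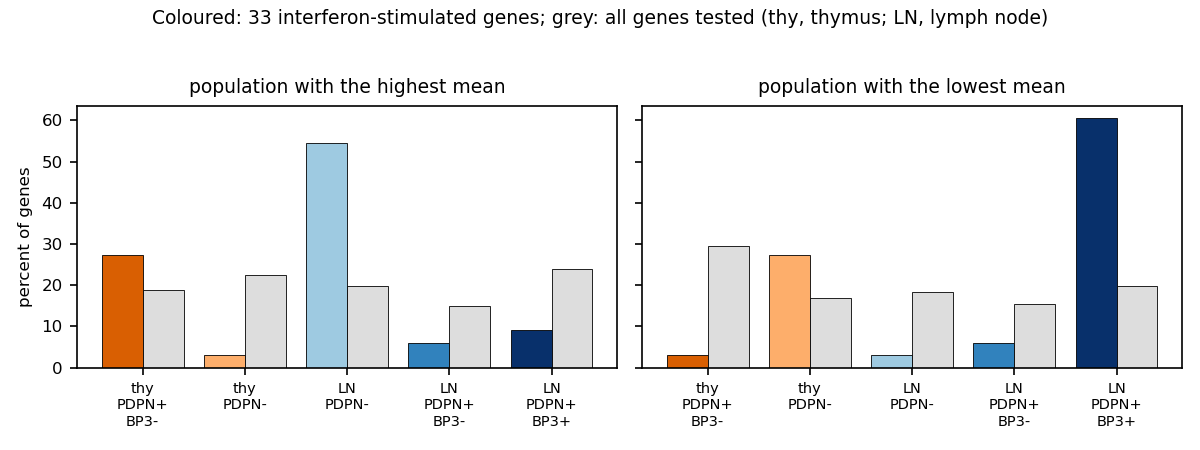
Bars give the percent of genes whose highest mean (left) or lowest mean (right) fell in each population, for the 33 members (coloured) and for all 18718 genes tested (grey). Lymph node PDPN- cells held the highest mean of 18 members, and lymph node PDPN+BP3+ cells held the lowest mean of 20.

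Of the transcription factors, Irf1, Irf7 and Irf9 were lowest in lymph node PDPN+BP3+ cells. Irf7, which amplifies the type I interferon response, read 6.31, 6.68 and 6.26 in thymic PDPN+BP3- cells and 6.55, 6.57 and 6.33 in thymic PDPN- cells. In lymph node it read 7.38, 7.19 and 7.22 in PDPN- cells, 6.03, 5.99 and 5.96 in PDPN+BP3- cells, and 5.51, 4.88 and 4.70 in PDPN+BP3+ cells. The lymph node populations did not overlap, and the thymic ones did. Irf7 was lower in PDPN+BP3+ than in PDPN- lymph node cells by a log2 difference of -2.23 ± 0.17 (SE, adjusted p = 3.49e-08), a 4.69-fold difference of signal. Irf1, a factor induced strongly through GAS elements by interferon gamma, read 8.19, 8.52 and 9.04 in thymic PDPN+BP3- cells and 9.28, 9.37 and 9.86 in thymic PDPN- cells. In lymph node Irf1 read 9.63, 9.47 and 9.54 in PDPN- cells, 8.92, 8.97 and 8.91 in PDPN+BP3- cells, and 7.93, 7.95 and 7.95 in PDPN+BP3+ cells. In both tissues its PDPN- arrays lay above its PDPN+BP3- arrays without overlap, with differences of PDPN+BP3- from PDPN- cells of -0.92 ± 0.18 in thymus (SE, adjusted p = 8.11e-04 in limma) and -0.61 ± 0.18 in lymph node (adjusted p = 0.0184). The row of Irf1 that was not kept had means of 7.44 and 8.42 in the thymic PDPN+BP3- and PDPN- cells, and of 7.93, 7.72 and 6.53 in the lymph node PDPN-, PDPN+BP3- and PDPN+BP3+ cells, the same order of populations within each tissue. With the rows of a gene averaged, the lymph node difference of Irf1 missed the threshold. Irf9, the DNA-binding part of ISGF3, had means of 6.40 ± 0.14, 6.05 ± 0.22 and 5.53 ± 0.11 in the same lymph node order. Stat2, the partner of IRF9, read 6.45, 6.66 and 6.37, then 6.37, 6.19 and 6.27 in the thymic PDPN+BP3- and PDPN- cells. In lymph node Stat2 read 7.04, 6.44 and 6.41 in PDPN- cells, 6.38, 6.24 and 5.96 in PDPN+BP3- cells, and 6.37, 6.03 and 5.91 in PDPN+BP3+ cells. Its lymph node PDPN- arrays lay just above those of the other lymph node populations and of thymic PDPN- cells, the other populations compared here overlapped, and its F test gave an adjusted p of 0.081 in limma.

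Of the sensors, Ifih1, which encodes the RNA sensor MDA5, had means of 7.34 ± 0.16, 6.98 ± 0.10 and 6.45 ± 0.10 in lymph node PDPN-, PDPN+BP3- and PDPN+BP3+ cells. Dhx58, encoding the related LGP2, had means of 4.77 ± 0.38, 3.65 ± 0.11 and 3.49 ± 0.15 in that order, the lower ones below the table median of 3.8. Zbp1, a sensor of Z-form nucleic acid, stood apart from the lymph node order. Its means were 5.75 ± 0.29 in thymic PDPN+BP3- cells, 4.53 ± 0.33 in thymic PDPN- cells, and 5.82 ± 0.41, 5.63 ± 0.27 and 5.87 ± 0.24 in the lymph node populations.

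The oligoadenylate synthetases, which make the activator of the antiviral RNase L, did not share 1 pattern. Oas1a read 4.45, 5.11 and 4.88 in thymic PDPN+BP3- cells and 3.62, 3.40 and 3.81 in thymic PDPN- cells. In lymph node Oas1a read 6.44, 5.84 and 5.07 in PDPN- cells, 3.84, 3.00 and 3.36 in PDPN+BP3- cells, and 4.20, 3.77 and 3.17 in PDPN+BP3+ cells. It was therefore high in the PDPN+BP3- subset of thymus and in the PDPN- subset of lymph node. Its means in the other populations lay below the table median of 3.8 and need not stand above background. Oas2 was highest in thymic PDPN+BP3- cells, with a mean of 4.13 ± 0.32, against 2.71 ± 0.07 in thymic PDPN- cells and 2.90 ± 0.43, 3.52 ± 0.46 and 2.47 ± 0.14 in lymph node, and its means below 3.8 need not stand above background. Oasl2 also had its highest mean there, 6.99 ± 0.16, and Oasl1 had its highest in lymph node PDPN- cells, 4.87 ± 0.41. Oas1a has close relatives in mouse that may share array probes with it.

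Among the IFIT genes, whose proteins bind viral RNA, Ifit1 and Ifit3 were lowest in lymph node PDPN+BP3+ cells and Ifit2 did not pass the F test. Ifit1 read 5.90, 5.83 and 6.26 in thymic PDPN+BP3- cells and 6.11, 5.88 and 5.92 in thymic PDPN- cells. In lymph node Ifit1 read 6.09, 5.88 and 5.94 in PDPN- cells, 5.12, 4.90 and 5.45 in PDPN+BP3- cells, and 3.79, 3.78 and 3.62 in PDPN+BP3+ cells. Its thymic populations and lymph node PDPN- cells overlapped, and the other lymph node populations lay below them. Ifit3 read 7.68, 7.76 and 7.60, then 7.46, 7.30 and 7.46 in the thymic PDPN+BP3- and PDPN- cells. In lymph node Ifit3 read 8.05, 7.59 and 7.57 in PDPN- cells, 7.09, 6.44 and 6.99 in PDPN+BP3- cells, and 5.39, 5.19 and 5.18 in PDPN+BP3+ cells. The PDPN+BP3+ arrays were again the lowest, by -2.48 ± 0.16 against PDPN- cells (SE, adjusted p = 4.72e-09 in limma). Ifit3 and the near-identical Ifit3b can share probes, and their values are not independent. Ifit2 read 5.47, 5.92 and 6.02, then 5.62, 5.61 and 5.56 in the thymic PDPN+BP3- and PDPN- cells. In lymph node Ifit2 read 5.54, 6.06 and 6.10 in PDPN- cells, 5.71, 5.60 and 6.07 in PDPN+BP3- cells, and 5.76, 5.73 and 5.76 in PDPN+BP3+ cells. The populations overlapped in each of the 6 pairwise comparisons, and the adjusted p of its F test was 0.612 in limma.

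The interferon-inducible GTPases include the Mx proteins, which are inactivated by mutation in C57BL/6 and many other laboratory strains. Mx2 read 4.30, 5.18 and 5.08 in thymic PDPN+BP3- cells and 5.60, 5.02 and 6.02 in thymic PDPN- cells. In lymph node Mx2 read 6.39, 5.64 and 5.10 in PDPN- cells, 4.67, 4.16 and 4.22 in PDPN+BP3- cells, and 3.03, 3.23 and 3.40 in PDPN+BP3+ cells. The PDPN+BP3+ arrays lay below all others and below the table median. Mx1 read 2.65, 2.95 and 2.45, then 2.35, 2.39 and 2.33 in the thymic PDPN+BP3- and PDPN- cells. In lymph node Mx1 read 2.51, 2.40 and 2.50 in PDPN- cells, 2.56, 2.36 and 2.44 in PDPN+BP3- cells, and 2.22, 2.32 and 2.76 in PDPN+BP3+ cells. It was the 1 member with all 5 means below the table median, so a difference in it may not be measurable here. Gbp3 had means of 6.88 ± 0.16, 6.33 ± 0.23 and 5.59 ± 0.31 in lymph node PDPN-, PDPN+BP3- and PDPN+BP3+ cells. Gbp2 had its highest mean in lymph node PDPN+BP3- cells, 6.94 ± 0.26, and Irgm1, an immunity-related GTPase, ran from 7.53 ± 0.24 to 6.52 ± 0.28 from PDPN- to PDPN+BP3+ cells. Guanylate-binding proteins form a family of similar genes, so their probes may not be specific.

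ISG15 is a ubiquitin-like modifier, and USP18 is the protease that removes it and that also dampens signalling at the type I interferon receptor. The genes ran in opposite directions across the lymph node populations, and neither passed the threshold between the thymic subsets. Isg15 read 5.81, 5.79 and 5.68 in thymic PDPN+BP3- cells and 6.29, 6.05 and 5.97 in thymic PDPN- cells. In lymph node Isg15 read 6.71, 6.72 and 6.73 in PDPN- cells, 5.58, 5.43 and 5.48 in PDPN+BP3- cells, and 5.14, 4.68 and 4.62 in PDPN+BP3+ cells. All lymph node populations were apart, with PDPN- cells highest. Usp18 read 5.19, 5.58 and 5.48, then 5.73, 5.52 and 5.62 in the thymic PDPN+BP3- and PDPN- cells. In lymph node Usp18 read 5.46, 5.29 and 5.25 in PDPN- cells, 6.73, 6.21 and 5.87 in PDPN+BP3- cells, and 7.28, 7.29 and 7.11 in PDPN+BP3+ cells. Usp18 was higher in PDPN+BP3+ than in PDPN- lymph node cells by 1.89 ± 0.17 (SE, adjusted p = 2.62e-07), a 3.71-fold difference of signal, while Isg15 was lower by -1.91 ± 0.13 (adjusted p = 8.44e-09). Parp14, an ADP-ribosyltransferase induced by interferon, had means of 7.33 ± 0.22, 6.39 ± 0.27 and 6.15 ± 0.25 in the lymph node order.

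Among other antiviral effectors, Rtp4 had the smallest F test p of all members (adjusted p = 2.76e-09 in limma). Rtp4, a chaperone-like protein that restricts some RNA viruses, read 6.78, 7.28 and 7.01, then 7.22, 7.23 and 7.31 in the thymic PDPN+BP3- and PDPN- cells. In lymph node Rtp4 read 7.50, 7.18 and 7.35 in PDPN- cells, 6.74, 6.24 and 6.47 in PDPN+BP3- cells, and 4.94, 4.66 and 4.39 in PDPN+BP3+ cells. The PDPN+BP3+ arrays lay far below the rest, by -2.68 ± 0.16 against PDPN- cells (SE, adjusted p = 1.97e-09), a 6.41-fold difference of signal. Samd9l, which inhibits protein synthesis in infected cells, read 6.28, 6.43 and 6.81, then 6.81, 6.73 and 6.23 in the thymic PDPN+BP3- and PDPN- cells. In lymph node Samd9l read 7.50, 7.36 and 7.45 in PDPN- cells, 6.22, 6.29 and 6.20 in PDPN+BP3- cells, and 5.72, 5.13 and 5.28 in PDPN+BP3+ cells. As for Isg15, the lymph node populations were apart. Rsad2, encoding viperin, read 4.21, 4.29 and 3.94, then 3.96, 3.48 and 3.76 in the thymic PDPN+BP3- and PDPN- cells. In lymph node Rsad2 read 3.48, 3.53 and 3.44 in PDPN- cells, 3.54, 3.04 and 3.56 in PDPN+BP3- cells, and 2.64, 2.66 and 2.87 in PDPN+BP3+ cells. Most of these values lay below the table median, with the PDPN+BP3+ arrays lowest. Trim30a, a member of the tripartite motif family that has several close relatives in mouse, split the populations differently. It read 6.57, 6.83 and 6.34 in thymic PDPN+BP3- cells and 4.24, 3.83 and 4.30 in thymic PDPN- cells. In lymph node Trim30a read 6.69, 6.01 and 6.18 in PDPN- cells, 6.65, 5.91 and 6.03 in PDPN+BP3- cells, and 5.09, 4.28 and 4.08 in PDPN+BP3+ cells. Thymic PDPN- cells and lymph node PDPN+BP3+ cells were low, and their arrays overlapped. Bst2, which encodes the virus-retaining membrane protein tetherin, had its highest mean in PDPN+BP3+ cells, 8.88 ± 0.41, and its lowest in thymic PDPN- cells, 8.14 ± 0.06. Eif2ak2, encoding the kinase PKR, had means between 5.51 ± 0.24 and 6.21 ± 0.13, both of them thymic. Lgals3bp, a secreted glycoprotein, was lowest in thymic PDPN- cells at 8.70 ± 0.02, and Xaf1, which opposes an inhibitor of apoptosis, was lowest in PDPN+BP3+ cells at 6.42 ± 0.20.

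**Figure D3:**
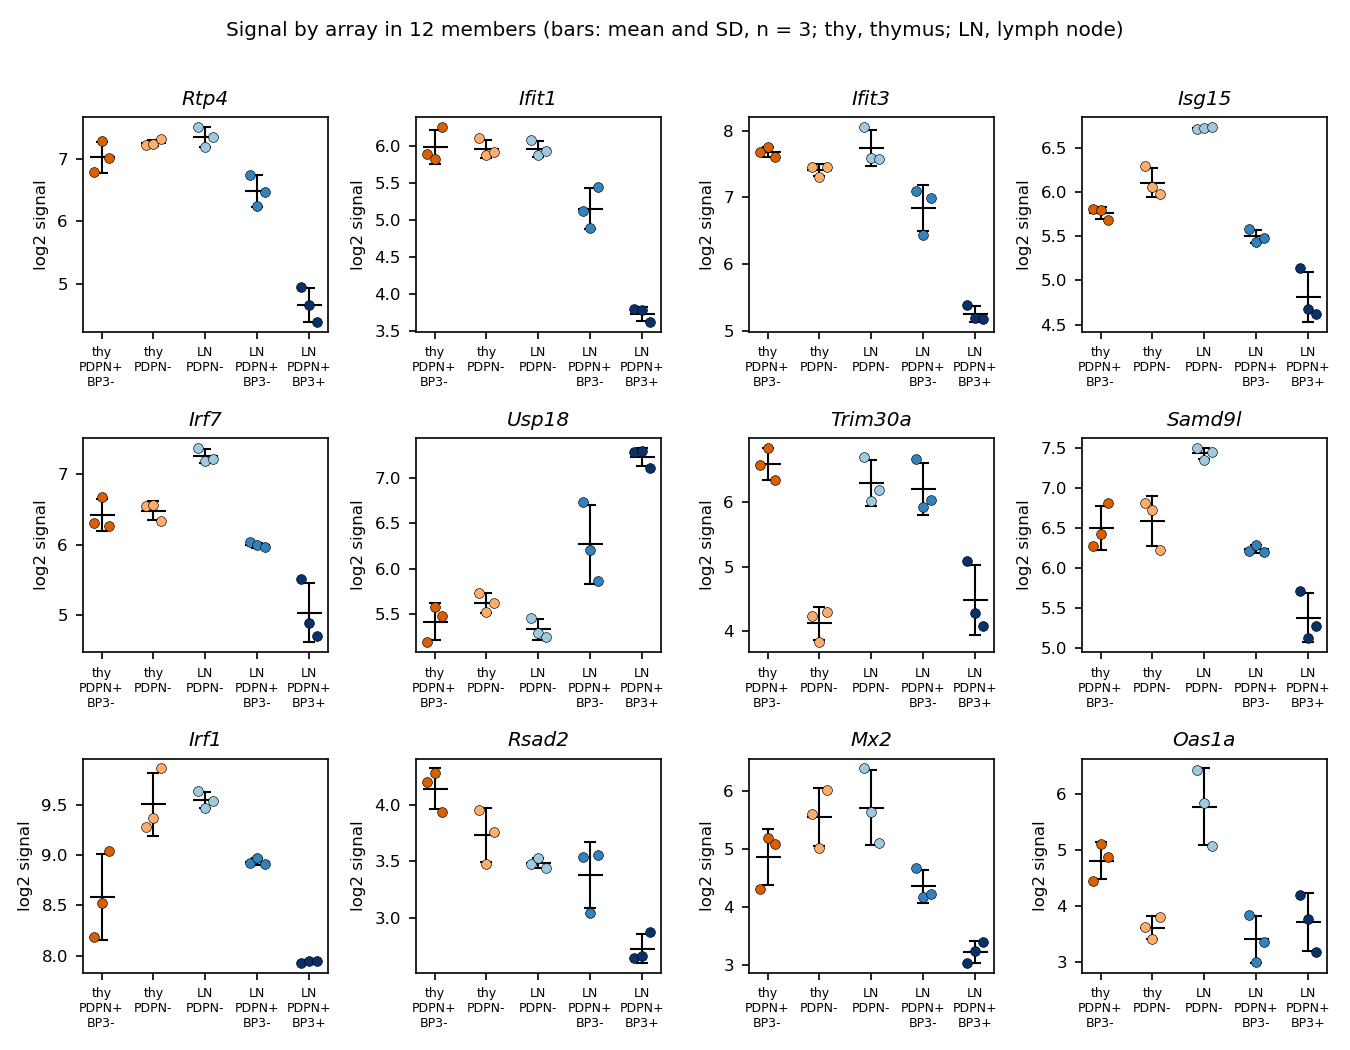
Each panel plots 1 of the 12 members with the smallest F test p, with the log2 signal on the vertical axis, the populations along the horizontal axis, a point for each array and bars for the mean and SD (n = 3). The lymph node PDPN+BP3+ points are lowest in 9 of the panels, highest for Usp18, beside those of thymic PDPN- cells for Trim30a and beside those of lymph node PDPN+BP3- cells for Oas1a.

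The comparison of lymph node PDPN+BP3+ with PDPN- cells held the most calls of the 6 pairwise ones. Of 33 members, 25 passed the threshold, 24 lower in PDPN+BP3+ cells and Usp18 higher, where the background was 27.3% of all genes in either direction, 11.2% lower and 16.1% higher. The arrays did not overlap in 25 members (39.0% of all genes). The median difference was -0.87 over the members and -0.00 over all genes. The members that were lower by the most after Rtp4 were Mx2 at -2.49 ± 0.31 (SE, adjusted p = 9.74e-06), Ifit3 at the value above, Ifit1 at -2.24 ± 0.14 (adjusted p = 4.33e-09) and Irf7. Calls of Stat2, Oasl2, Cmpk2 and Sp100 were lost without the replicate 1 array of PDPN- cells, and also without others. The members that did not pass the threshold were Zbp1, Oas2, Ifit2, Mx1, Gbp2, Eif2ak2, Bst2 and Lgals3bp, with differences from -0.43 to 0.36. Among members with a promoter window, 10 of 13 with an ISRE core and 10 of 12 without one were lower.

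The steps between these populations were tested one at a time, and the comparisons share arrays. From PDPN- to PDPN+BP3- cells of lymph node, 17 members passed the threshold, 16 lower and Usp18 higher by 0.94 ± 0.17 (SE, adjusted p = 5.65e-04), where the background was 23.1%, 9.79% lower and 13.4% higher. The differences of Oas1a at -2.38 ± 0.31 (adjusted p = 2.24e-05), Mx2 at -1.36 ± 0.31 (adjusted p = 0.00336), Irf7 at -1.27 ± 0.17 (adjusted p = 2.84e-05) and Isg15 at -1.22 ± 0.13 (adjusted p = 2.09e-06) were the largest. The arrays did not overlap in 20 members (34.6% of all genes), and the median was -0.44 over the members and -0.01 over all genes. Calls of Irf1, Gbp3, Irgm1, Ifi35 and Lgals3bp were lost when 1 or another array was left out. From PDPN+BP3- to PDPN+BP3+ cells, 17 members passed, 15 lower and 2 higher, where the background was 16.2%, 7.74% lower and 8.49% higher. Rtp4 at -1.82 ± 0.16 (SE, adjusted p = 4.10e-07), Trim30a at -1.71 ± 0.26 (adjusted p = 1.25e-04), Ifit3 at -1.59 ± 0.16 (adjusted p = 1.82e-06) and Ifit1 at -1.43 ± 0.14 (adjusted p = 1.75e-06) fell most. The higher ones were Usp18 at 0.96 ± 0.17 (adjusted p = 6.57e-04) and Bst2 at 0.56 ± 0.18 (adjusted p = 0.0449), whose arrays overlapped and whose call was lost under 14 of the 23 alternatives. The calls of Mx2, Gbp3 and Ifih1 were lost with 3, 2 and 1 of the arrays left out in turn. The arrays did not overlap in 19 members (32.9% of all genes), and the median was -0.52 over the members and 0.01 over all genes.

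**Figure D4:**
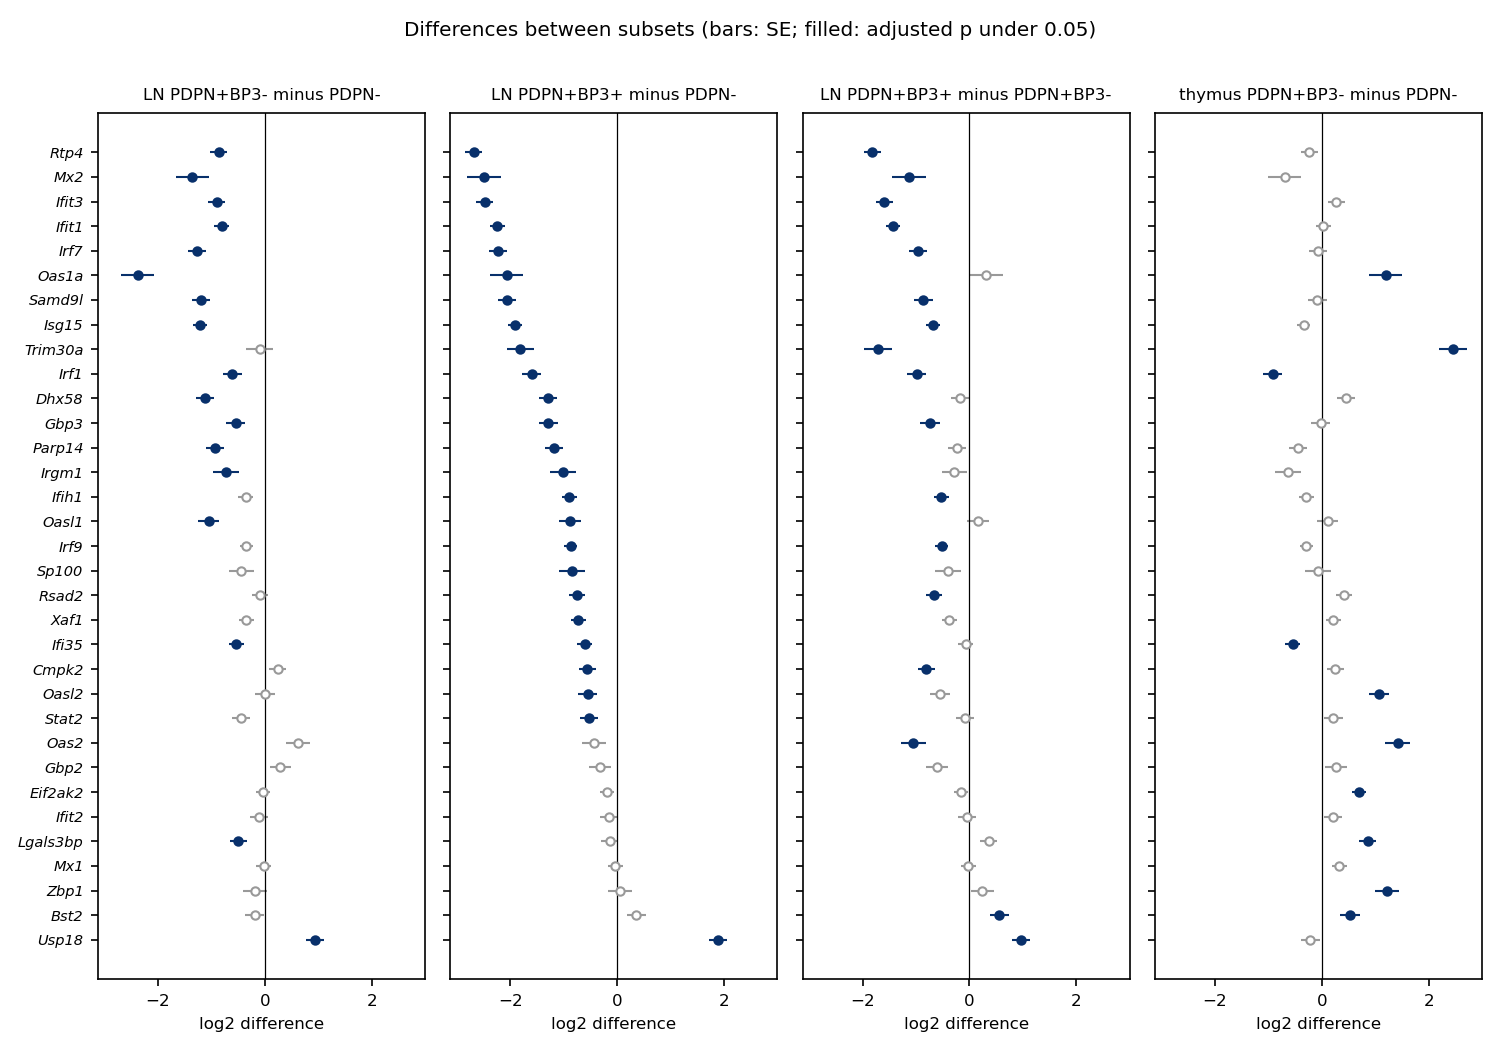
Each panel gives the log2 difference of every member in 1 comparison, with bars for the SE and filled points where the adjusted p was under 0.05. In the lymph node panels most filled points lie left of 0, with Usp18 to the right.

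Of the 7 myeloid marker genes, Cd68 was lower in both podoplanin-positive lymph node populations than in PDPN- cells, and some others were higher. From PDPN+BP3- to PDPN+BP3+ cells 0 of the 7 passed the threshold in limma. Cd68 had means of 6.73, 5.75 and 5.18 in PDPN-, PDPN+BP3- and PDPN+BP3+ cells, and the summed linear signal of the list, which Cd68 dominates, was 124 to 147, 93 to 116 and 78.8 to 90.4. Lyz2, Fcer1g and Tyrobp were higher in PDPN+BP3- cells, and Lyz2 and Tyrobp in PDPN+BP3+ cells, each against PDPN- cells. Csf1r, Itgam, Adgre1, Fcer1g and Tyrobp lay below the table median in all 3 populations and Lyz2 in all but PDPN+BP3+ cells. Pan-leukocyte markers summed to 30.6 to 32.5 in PDPN- cells, 56.2 to 69 in PDPN+BP3- cells and 44.5 to 68.2 in PDPN+BP3+ cells, with Cd52 and Laptm5 of the 4 higher in each podoplanin-positive population than in PDPN- cells. Class II and dendritic markers summed to 83.7 to 147, 85.5 to 116 and 277 to 295 in that order, and 3 of 5 rose from PDPN- to PDPN+BP3+ cells, Cd74 by 2.89 ± 0.30, H2-Aa by 2.17 ± 0.35 and H2-Ab1 by 1.38 ± 0.29 (SE). Siglech and Ccr9, markers of plasmacytoid dendritic cells, and all 5 T-lineage markers lay below the table median in the 3 populations. Irf8 of the plasmacytoid list was higher in PDPN+BP3+ cells than in both others. Tcf4 of that list was lower in both podoplanin-positive populations than in PDPN- cells. Endothelial markers summed to 122 to 177 in PDPN+BP3- cells and to at most 74.5 elsewhere. The part of any of these markers' cells in the differences of the members was not tested.

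Between PDPN+BP3- and PDPN- cells of thymus, 10 members passed the threshold, 8 higher in PDPN+BP3- cells and 2 lower, where the background was 28.5%, 10.3% higher and 18.2% lower, so the share called, 30.3%, was near the background. The arrays did not overlap in 17 members (38.3% of all genes), and the median difference was 0.21 over the members and -0.05 over all genes. With array medians centred the split was 10 higher and 3 lower, and with cyclic loess scaling 14 higher and 1 lower. Trim30a was higher by 2.46 ± 0.26 (SE, adjusted p = 1.36e-06), a 5.5-fold difference of signal, Oas2 by 1.42 ± 0.23 (adjusted p = 1.42e-04), Zbp1 by 1.22 ± 0.22 (adjusted p = 4.80e-04) and Oas1a by 1.20 ± 0.31 (adjusted p = 0.00824). Oasl2, Lgals3bp, Eif2ak2 and Bst2 were higher by 1.07, 0.86, 0.70 and 0.53, and the call of Bst2 was lost when any 1 of the 6 thymic arrays was left out. The lower ones were Irf1, as above, and Ifi35, by -0.54 ± 0.14 (adjusted p = 0.00931), which was lost with cyclic loess at -0.28. T-lineage markers summed to 67 to 237 in thymic PDPN+BP3- cells and 241 to 398 in PDPN- cells, and pan-leukocyte markers to 68.9 to 197 and 213 to 290. Cd3d and Cd3e of the 5 T-lineage markers and Cd52 and Coro1a of the 4 pan-leukocyte markers were called lower in PDPN+BP3- cells. Also lower were 3 of 5 class II and dendritic markers, 2 of 6 epithelial markers, Cd68, Ccr9 and all 6 pericyte markers. Kdr and Tek of 6 endothelial markers, Tcf4 and 5 of 6 mesenchyme markers were higher, and Pdgfrb was lower. The part of these markers' cells in the thymic differences was not tested.

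PDPN- cells of lymph node were compared with PDPN- cells of thymus, and 13 members passed the threshold, every one of them higher in lymph node (limma; 0 were lower at an unadjusted p under 0.05 too), where the background was 9.61%, 4.42% higher and 5.19% lower. The arrays did not overlap in 19 members (24.7% of all genes), and the median was 0.35 over the members and -0.01 over all genes. Oas1a at 2.17 ± 0.31 (SE, adjusted p = 1.91e-04) and Trim30a at 2.17 ± 0.26 (adjusted p = 2.87e-05) were higher by the most, followed by Zbp1 at 1.30 ± 0.22 (adjusted p = 9.17e-04) and Dhx58 at 1.09 ± 0.17 (adjusted p = 4.47e-04). Samd9l, Gbp3, Lgals3bp, Irf7, Gbp2, Parp14, Isg15, Oasl2 and Eif2ak2 were higher by 0.85 to 0.48. Calls of Oasl2 and Gbp2 were lost under 13 and 9 of the 23 alternatives. Those of Parp14 and Eif2ak2 were lost when replicate 2 of thymic PDPN- cells or replicate 1 of lymph node PDPN- cells was left out. The call of Eif2ak2 was lost under 5 alternatives in all, with values down to 0.35.

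PDPN+BP3- cells gave 8 calls between the tissues, 6 lower in lymph node and 2 higher, where the background was 17.1%, 5.29% lower and 11.8% higher. Oas1a at -1.41 ± 0.31 (SE, adjusted p = 0.00468), Ifit1 at -0.84 ± 0.14 (adjusted p = 5.83e-04), Ifit3 at -0.84 ± 0.16 (adjusted p = 0.00151) and Rsad2 at -0.77 ± 0.15 (adjusted p = 0.00214) were lower, as were Rtp4 at -0.54 and Lgals3bp at -0.52. Usp18 at 0.85 ± 0.17 (adjusted p = 0.00214) and Gbp2 at 0.71 ± 0.20 (adjusted p = 0.0226) were higher. The call of Rtp4 was lost under 5 of the 23 alternatives and those of Lgals3bp and Gbp2 under 4 each, with values down to -0.31 for Lgals3bp and 0.47 for Gbp2. The arrays did not overlap in 15 members (29.2% of all genes), and the median was -0.30 over the members and 0.04 over all genes. The count depended on the scaling, with 2 higher and 12 lower after centring on array medians and 1 higher and 15 lower after cyclic loess. In both tissue comparisons all 5 measured T-lineage markers were lower in lymph node. There they summed to 35.8 to 42.7 and lay below the table median. Also lower in lymph node in both comparisons were 4 of 5 class II and dendritic markers and 5 of 6 epithelial markers. Epithelial markers summed to 45.6 to 59.5 in those lymph node populations and to 85.7 to 328 in thymus. Of the 4 pan-leukocyte markers, all were lower in lymph node for PDPN- cells and 2 for PDPN+BP3- cells. Cd68 was higher in lymph node in both comparisons. Of the 6 pericyte markers, 1 was lower in lymph node for PDPN- cells, and 4 were higher and 2 lower for PDPN+BP3- cells. The part of these markers' cells in the tissue differences was not tested.

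The step from PDPN- to PDPN+BP3- cells depended on tissue in 14 members, where the background was 12.7%, 4.05% lower and 8.67% higher. In 13 of them the lymph node difference lay below the thymic one, and in Usp18 it lay above. The median of the interaction was -0.65 over the members and 0.06 over all genes. Oas1a changed sign, from 1.20 in thymus to -2.38 in lymph node, an interaction of -3.59 ± 0.44 (SE, adjusted p = 4.20e-05 in limma). Lgals3bp also passed the threshold in opposite directions, at 0.86 in thymus and -0.50 in lymph node, but its lymph node call was lost under 5 of the 23 alternatives, at values down to -0.29. Trim30a, Zbp1, Oasl2 and Eif2ak2 were called in thymus and lay between -0.19 and 0.00 in lymph node. Irf7, Isg15, Samd9l, Ifit1, Ifit3, Dhx58, Oasl1 and Usp18 were called in lymph node and not in thymus, where they lay between -0.34 and 0.46.

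**Figure D5:**
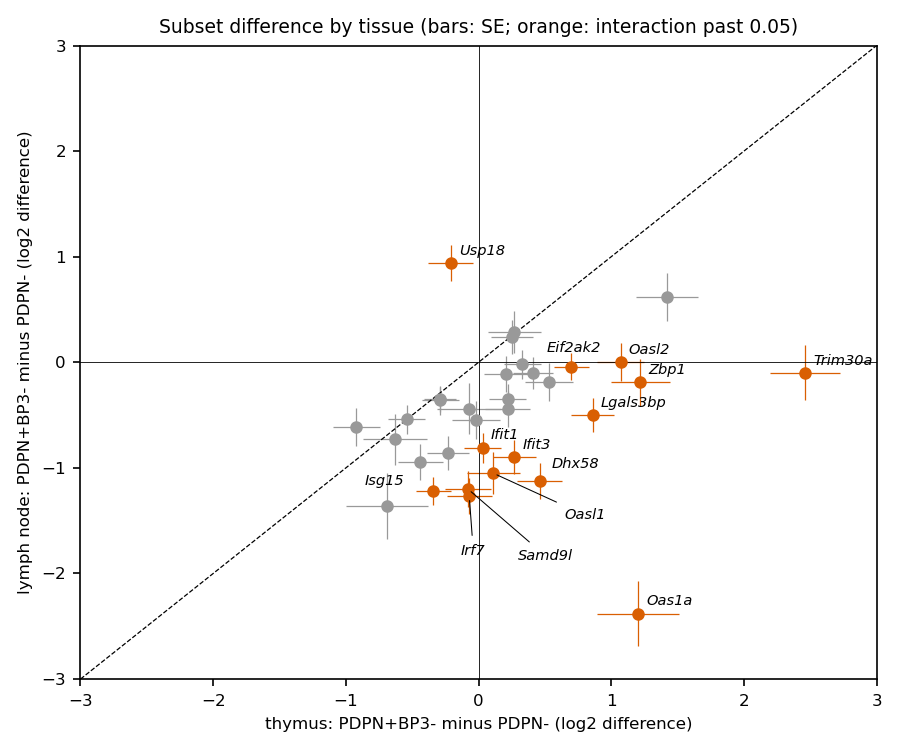
Each point is a member, with its log2 difference between PDPN+BP3- and PDPN- cells in thymus on the horizontal axis and in lymph node on the vertical axis, and bars for the SE. Orange points passed the threshold for the interaction, and Oas1a lies farthest from the diagonal.

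Other genes of the pathway were taken from lists chosen by function. The F test passed the threshold in 7 of 10 measured receptor and JAK-STAT genes, 9 of 15 genes of nucleic acid sensing, 6 of 10 brakes on signalling and 39 of 50 further interferon-inducible genes, where the background was 45.3%. Of the receptor and JAK-STAT genes, Ifnar1 and Ifngr1 rose from PDPN- to PDPN+BP3+ lymph node cells, and 0 were lower in limma, also at an unadjusted p under 0.05. Ifngr1, a receptor chain for interferon gamma, had means of 8.55 ± 0.21, 7.45 ± 0.12, 7.67 ± 0.22, 8.52 ± 0.19 and 8.46 ± 0.15 in thymic PDPN+BP3-, thymic PDPN-, and lymph node PDPN-, PDPN+BP3- and PDPN+BP3+ cells. Ifnar1, a receptor chain for type I interferon, had means of 7.39 ± 0.20, 6.97 ± 0.18, 7.01 ± 0.20, 7.49 ± 0.07 and 7.45 ± 0.12 in that order. Both were higher in podoplanin-positive cells, and the difference between PDPN+BP3+ and PDPN- lymph node cells was 0.79 ± 0.14 for Ifngr1 (SE, adjusted p = 4.85e-04) and 0.44 ± 0.13 for Ifnar1 (adjusted p = 0.0221). Jak1 was higher in PDPN+BP3+ than in PDPN+BP3- cells by 0.52 ± 0.11 (adjusted p = 0.00227). Of 21 listed interferon genes 14 were measured. Of these 14, 0 passed the threshold in limma in any comparison, and 0 to 2 had an unadjusted p under 0.05. Their levels are not given here, so the absence of calls does not show equal expression.

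Of 15 measured genes of nucleic acid sensing, 5 were higher and 3 lower in PDPN+BP3+ than in PDPN- lymph node cells, where the background was 16.1% higher and 11.2% lower. Sting1, the adaptor of cytosolic DNA sensing, had its highest mean in PDPN+BP3+ cells, 8.75 ± 0.13, and was higher by 1.69 ± 0.13 (SE, adjusted p = 4.63e-08). Irf5, a factor downstream of such adaptors, was higher by 1.29 ± 0.14 (adjusted p = 2.42e-06). Aim2, a DNA sensor of inflammasomes, was lower by -2.16 ± 0.22 (adjusted p = 1.02e-06), with a mean of 2.36 ± 0.19 that lay below the table median, and Myd88, a Toll-like receptor adaptor, by -0.73 ± 0.12 (adjusted p = 2.45e-04).

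Of the 10 brakes, Ptpn6 was higher in PDPN+BP3+ than in PDPN- lymph node cells, a gene named after its value was seen, and 0 were lower in limma, also at an unadjusted p under 0.05. Cish and Socs3, feedback inhibitors of cytokine receptors, were highest in lymph node PDPN+BP3- cells, at 6.52 ± 0.18 and 9.28 ± 0.14, and exceeded PDPN- cells by 1.12 ± 0.17 (SE, adjusted p = 8.12e-05) and 0.55 ± 0.16 (adjusted p = 0.0189). Of 50 measured further interferon-inducible genes outside the members, 22 were lower and 6 higher in PDPN+BP3+ than in PDPN- lymph node cells. Their median was -0.35, and the background was 11.2% lower and 16.1% higher. From PDPN+BP3- to PDPN+BP3+ cells 5 were lower and 7 higher, with a median of -0.13, beside a background of 7.74% lower and 8.49% higher. In PDPN+BP3- cells 3 were lower and 7 higher in lymph node than in thymus, beside a background of 5.29% lower and 11.8% higher. In the comparison of PDPN- cells between tissues 15 were higher and 0 lower in lymph node (limma; 24 and 1 at an unadjusted p under 0.05), where the background was 4.42% higher and 5.19% lower. Ifit3b was lower in PDPN+BP3+ than in PDPN- lymph node cells by -2.25 ± 0.26 (adjusted p = 4.02e-06). Ifi205, of the IFI200 family of DNA-binding proteins, was higher in thymic PDPN+BP3- than in PDPN- cells by 4.62 ± 0.41 (adjusted p = 1.79e-07). Cxcl9, a chemokine induced by interferon gamma, was higher in lymph node than in thymic PDPN- cells by 1.36 ± 0.17 (adjusted p = 3.87e-05).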

How the data were processed

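RNA of 15 sorted cell samples, 5 populations with 3 arrays each, was isolated with the RNeasy Micro kit, amplified (Ovation Pico WTA System V2), labelled (Encore Biotin) and hybridised to Mouse Gene 1.1 ST arrays, per the labels' protocols. The deposited values are log2 signals that the authors made with RMA in the Affymetrix Expression Console, per the submitters' processing notes (versions not given in the sources used here). Base 2 was inferred from the range, 1.07 to 12.07. RMA scales arrays to a shared distribution, so a shift common to most genes would not be seen. All deposited columns were assigned by their titles. No measure of background was used here, and values below the table median of 3.8 need not stand above background.

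Of 24758 rows, 20844 had 1 symbol in the array annotation, 1735 had several and 2179 had none; 20817 symbols were found in the RefSeq gene table by gene identifier. The row with the highest mean was kept for 1230 genes with more than 1 row, which left 18718 genes, without a filter. limma 3.58.1 in R 4.3.3 fitted 1 mean per population over all 15 arrays, with empirical Bayes moderation (10 residual and 5.50 prior degrees of freedom) and Benjamini-Hochberg adjustment over all genes. The script was tested on simulated data. There were 6 pairwise comparisons, an interaction and an F test. The number of arrays limits the precision: SDs of members within a population ran from 0.01 to 0.69, with a median of 0.21. The labels give the arrays of a population as 3 individual experiments, so the p-values measure the spread between experiments. The fit was unpaired, so a shift shared by same-numbered arrays would stay in that spread.

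The members and lists were chosen with earlier results of these data known. Values by array are given for the 12 members with the smallest F test p and the 3 with the largest, members past the threshold against the majority are named, and up to 4 genes of each pathway list with the smallest F test p may be named. Promoters were printed for at most 8 members called in most comparisons. The alternatives were other scalings, array weights, a trended and robust prior, a replicate block, averaged rows, a filter on low values, the compared populations alone, and leaving out each array.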

Additional observations from a re-analysis of the deposited data

Results flagged for a closer look

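The step from PDPN- to PDPN+BP3- cells was unequal in lymph node and thymus in 14 members, by the interaction term of the limma fit at an adjusted p under 0.05. The effect given is the lymph node difference minus the thymus difference, on the log2 scale, with n = 3 arrays per population. All 14 stayed past the threshold under all 23 alternatives.

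The change of sign was widest for Oas1a, with an interaction of -3.59 ± 0.44 (SE, adjusted p = 4.20e-05), and its lower mean in each tissue lay below the table median. Lgals3bp, also called in opposite directions, had -1.36 ± 0.23 (adjusted p = 6.76e-04), but its lymph node call was lost under 5 alternatives. Among members called in thymus and not in lymph node, the interaction was -2.55 for Trim30a, -1.41 for Zbp1, -1.07 for Oasl2 and -0.75 for Eif2ak2. Among members called in lymph node and not in thymus, it was -1.58 for Dhx58, -1.20 for Irf7, -1.17 for Ifit3, -1.15 for Oasl1, -1.12 for Samd9l, -0.88 for Isg15 and -0.84 for Ifit1. Usp18 ran the other way at 1.14 ± 0.24 (adjusted p = 0.00455).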

How the results depend on the processing

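Of 104 called pairs of member and comparison, 82 stayed past the threshold under all 23 alternatives, 22 were lost under 1 or more, and 0 changed sign. Leaving out replicate 1 of lymph node PDPN- cells lost the most, 13 pairs. With 1 array left out, the members called ranged over 9 to 12 between the thymic subsets, 13 to 20 from PDPN- to PDPN+BP3- and 21 to 26 from PDPN- to PDPN+BP3+ in lymph node, 14 to 20 from PDPN+BP3- to PDPN+BP3+, 9 to 15 between the PDPN- populations, 6 to 10 between the PDPN+BP3- populations, 14 to 16 for the interaction and 29 to 30 for the F test. The comparison of PDPN+BP3- cells between tissues, with 8 calls, moved most: 14 with array medians centred, 16 with cyclic loess, 13 with array quality weights and 5 with the compared populations alone. The cause was not tested. The fall of the lymph node means held for 23 members, 24 with medians centred and 23 with cyclic loess, beside 20.5%, 29.1% and 21.0% of all genes. The replicate block gave each number the same effect in thymus and lymph node. It kept 102 of the 104 pairs and lost Gbp3 between lymph node PDPN+BP3- and PDPN- cells and Gbp2 between PDPN- populations. Correlations of same-numbered arrays' deviations over all genes ran from -0.17 to 0.29 in 30 array pairs, 6 of them above 0.1. In 0 of 10 population pairs were all above 0.1, so the numbers were not taken as pairs, although in 6 of the 9 pairs within lymph node an array correlated best with its own number. Values below the table median, all 5 means of Mx1 among them, limit what can be seen.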

Other observations

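The replicate 1 arrays of lymph node were high for most members, a pattern looked for after the values were seen. Replicate 1 was the highest of the 3 arrays in 30 of 33 members in lymph node PDPN- cells, in 27 in PDPN+BP3- cells and in 22 in PDPN+BP3+ cells. Over all genes the shares were 37.8%, 30.6% and 30.9%. In 19 members replicate 1 was highest in all 3 lymph node populations, against 5.49% of all genes. In thymus it was highest in 3 members in PDPN+BP3- cells and in 13 in PDPN- cells, against 18.3% and 31.7% of all genes.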
